A study of Mus musculus with 5 samples.

Results

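The cytotoxic granule genes described here are 7 granzymes, 5 of them in a cluster on chromosome 14 and 2 on chromosome 13, together with perforin, the granule proteoglycan serglycin and an inhibitor of granzyme B. Members were chosen by name: Gzma, Gzmb, Gzmc, Gzmd, Gzme, Gzmf, Gzmk, Prf1, Srgn and Serpinb9, with every probe set that the platform annotation gives to any of them. These are 10 of the 8251 genes named on the array, read by 11 probe sets. Of these probe sets 10 carry 1 gene name, and 1 is shared by Gzme and Gzmd and is the only one for Gzme.

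The arrays come from CD8 T cells of C57BL/6 OT-1 TCR transgenic mice aged 6 to 8 weeks, a line in which the T cell receptor is specific for an ovalbumin peptide. CD44lo CD8+ cells from lymph nodes, obtained by negative enrichment, were cultured with latex microspheres bearing the H-2Kb peptide complex and B7-1, a ligand of the costimulatory receptor CD28. The groups were antigen and B7-1 alone at 48 h (2 arrays), antigen and B7-1 with murine IL-21 at 48 h (2 arrays), and the latter at 72 h (1 array). Human IL-2 was present in every culture, so no group lacks it, and no antigen-presenting cell was added. The labels call the samples biological replicates without naming separate mice or cultures, so the p-values measure only the spread between these samples. No 72 h culture without the cytokine is analysed here, so time and continued exposure to IL-21 cannot be told apart at 72 h.

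Killer lymphocytes store their lytic proteins in secretory granules and release them towards a bound target cell. Perforin forms pores that let granzymes, a family of serine proteases, enter the target, where granzyme B cleaves caspases and other substrates and so starts apoptosis. Serglycin, the proteoglycan encoded by Srgn, holds granzymes and perforin in the granule through its glycosaminoglycan chains. Serpinb9 encodes a serpin of the cytosol that inhibits granzyme B and protects the killer cell from its own protease. Naive CD8 T cells contain little of this machinery and build it after activation.

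The windows before the transcription starts of Gzmb and Prf1 are shown because these 2 genes share a pattern across arrays described later. That of Serpinb9 is shown because it is the only member called in the main fit, a call that depends on the settings. They are the 250 bases upstream of each RefSeq start (build GRCm38.p6), 5′ to 3′ in the gene's direction: Gzmb at chr14:56262335-56262584 on the minus strand, Prf1 at chr10:61297586-61297835 on the plus strand and Serpinb9 at chr13:33004291-33004540 on the plus strand. Capitals mark matches, on either strand, to motifs of factors tied to cytotoxic genes (RUNX, T-box, STAT, AP-1, CRE, ETS, NFAT and RBPJ).
Gzmb: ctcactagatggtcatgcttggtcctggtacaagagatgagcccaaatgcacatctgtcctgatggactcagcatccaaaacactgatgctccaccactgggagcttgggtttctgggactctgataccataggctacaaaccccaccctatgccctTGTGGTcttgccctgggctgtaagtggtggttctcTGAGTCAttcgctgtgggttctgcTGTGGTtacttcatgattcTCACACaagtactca
Prf1: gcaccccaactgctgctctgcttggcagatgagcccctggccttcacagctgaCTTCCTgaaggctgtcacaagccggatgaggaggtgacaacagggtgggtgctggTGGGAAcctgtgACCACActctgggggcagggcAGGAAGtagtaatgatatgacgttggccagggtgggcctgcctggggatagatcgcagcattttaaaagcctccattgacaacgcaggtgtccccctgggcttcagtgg
Serpinb9: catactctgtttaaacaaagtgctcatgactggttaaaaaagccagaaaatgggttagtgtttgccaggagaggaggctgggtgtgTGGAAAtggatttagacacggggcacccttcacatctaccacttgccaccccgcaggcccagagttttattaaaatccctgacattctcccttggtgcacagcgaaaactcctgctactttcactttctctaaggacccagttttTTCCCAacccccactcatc

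Signals below are MAS5 intensities brought to a common distribution over the 5 arrays by quantile normalisation, and they include an offset of 1.53 units. Differences are on the log2 scale with the standard error of the limma fit. Tests were limited to probe sets whose log2 value, averaged over the arrays, lay above the 40th percentile, a signal of 13 units, and 7453 probe sets for 5610 genes passed this filter. Among the members 4 of 11 probe sets passed, those for Gzmb, Prf1, Srgn and Serpinb9, and 7 probe sets for 6 granzyme genes did not. Probe sets of different genes bind RNA with different efficiency, so no gene's signal is set against another's. In these bulk cultures, fewer cells making a transcript and less of it per cell cannot be told apart.

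The listed markers of CD8 T cells, many of them shared with other T cells, were judged by their mean over the 5 arrays. All 11 of the 13 listed markers that the annotation names (Lck and Trbc1 are not among them) passed the filter. Their summed normalised signal was 6857 and 7058 without IL-21, 6899 and 7585 with it, and 9881 at 72 h. By sign 7 of the 11 were higher at 72 h than at 48 h with IL-21 and 4 lower (median 0.35). Among all tested probe sets 4.04% were called higher at 72 h. Cd3d, Cd3g and Thy1 were called higher at 72 h, by 1.40, 1.78 and 0.58 (limma adjusted p 0.00983, 0.00928 and 0.0342). Of the listed markers of NK cells, 1 of 7 on the array passed, Il2rb, which activated CD8 T cells also express and which was called higher at 72 h (1.18, limma adjusted p 0.0295). The summed NK signal was 226 to 328 at 48 h and 509 at 72 h. Ncr1, the defining NK receptor, was below the filter, as were Cpa3 and Fcer1a of mast cells, of whose 13 markers 2 passed (summed 116 to 142 at 48 h and 133 at 72 h). B cell markers (5 of 9 passed) summed to 401 to 686 at 48 h and 1007 at 72 h, and those of myeloid and dendritic cells (8 of 17 passed) to 325 to 472 at 48 h and 459 at 72 h. Of the latter H2-Ab1, an MHC class II chain, was called higher at 72 h (1.24, limma adjusted p 0.0256). By sign 3 of the 8 tested myeloid and dendritic markers were higher at 72 h and 5 lower (median -0.48). CD4 and regulatory T cell markers (2 of 5 passed) summed to 45.2 to 81.3 at 48 h and 84.9 at 72 h. The part of these other cell types in the 72 h values below was not tested. Before normalisation the trimmed mean signal of the arrays ran from 65.3 to 106, highest on both 48 h arrays with IL-21, so the deposited values were not scaled to a common target.

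Gzmb, the gene of granzyme B, ranged 4.02-fold over the 5 arrays. Without IL-21 at 48 h the Gzmb probe set read 1345 on the first array and 3222 on the second, with IL-21 it read 2438 and 5405, and at 72 h with IL-21 it read 3717. The first array without IL-21 was the lowest and the second with IL-21 the highest, and the groups overlapped, since the second array without IL-21 lay above the first with it. The mean level was 2082 without IL-21 and 3630.5 with it. The difference of 0.80 ± 0.50 (SE, 2 arrays against 2) was within the spread between arrays of a group. Its 95% interval ran from -0.41 to 2.02, with a limma adjusted p of 0.967. Between arrays of the same replicate number, the signal with IL-21 was 1.81-fold (first) and 1.68-fold (second) that without it. The labels do not tie these numbers to a shared mouse or culture, and a fit using them as a block is given at the end.

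Prf1, the perforin gene, was not separated by IL-21 at 48 h. Prf1 read 46.6 and 136 without IL-21, 43.7 and 150.4 with it, and 132 at 72 h. Both first arrays were low and both second arrays high, whichever medium they came from, and the 72 h array lay near the high ones. The 48 h difference was 0.03 ± 0.70 (95% interval -1.69 to 1.74, limma adjusted p 0.998). An interval of that width covers large changes in either direction.

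Srgn, the matrix proteoglycan, read 92.1 and 152 without IL-21, 135 and 159 with it, and 104 at 72 h. The lowest array was the first without IL-21 and the other 48 h arrays lay close together, so the groups overlapped. The 48 h difference was 0.31 ± 0.27 (95% interval -0.36 to 0.98, limma adjusted p 0.985).

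Serpinb9, the granzyme B inhibitor, read 205 and 200.4 without IL-21, 185 and 151 with it, and 82.3 at 72 h. Both IL-21 arrays lay below both arrays without it, the only tested member whose 48 h groups did not overlap, and the 72 h array was the lowest of the 5. That separation is common in these data: the groups did not overlap for 33.8% of all tested probe sets. The difference at 48 h was -0.28 ± 0.18 (95% interval -0.71 to 0.16, limma adjusted p 0.967), and in the deposited scaling its sign turned, to 0.27.

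**Figure D1:**
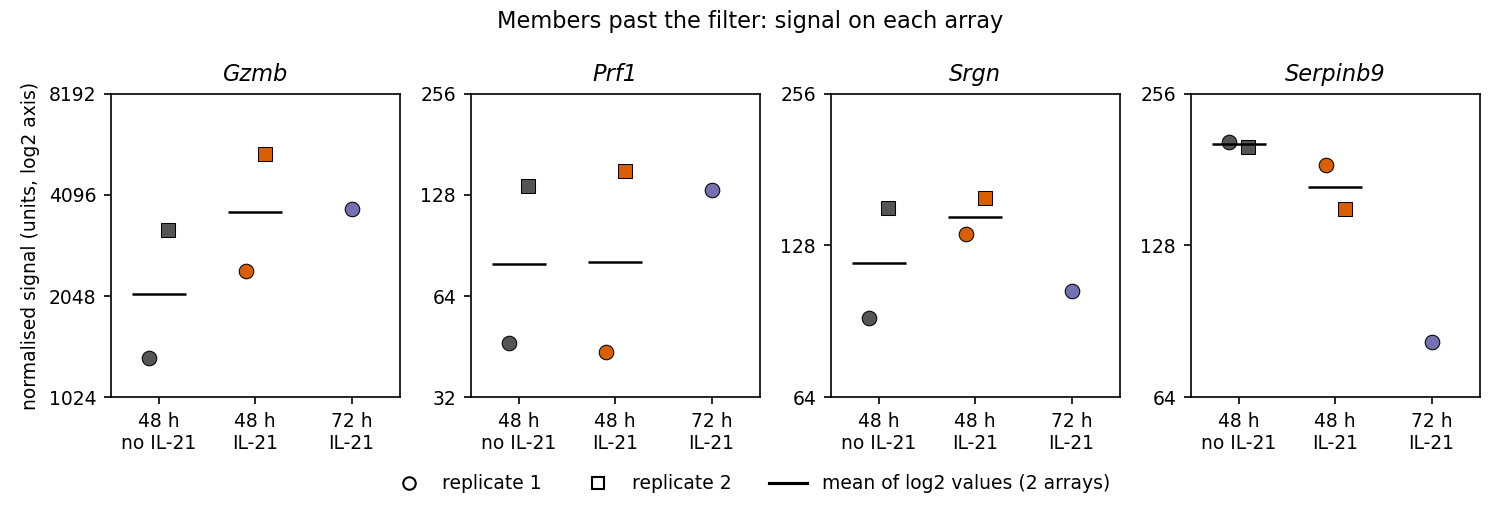
Normalised signal (log2 axis) of Gzmb, Prf1, Srgn and Serpinb9 on each of the 5 arrays, by group, with circles for replicate 1, squares for replicate 2 and lines for the mean of the log2 values. Prf1 separates by replicate number, at 46.6 and 43.7 units for the first and 136 and 150.4 for the second, and Serpinb9 is lowest at 72 h.

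As deposited, before any scaling between arrays, all 4 tested members had higher mean signals with IL-21 at 48 h, as did the median of all probe sets, by 0.57. Gzmb read 1212 and 2572 without IL-21, 2997 and 6685 with it, and 3392 at 72 h, and here both IL-21 arrays lay above both others at 48 h. Its difference was then 1.34 (limma adjusted p 0.0516). Prf1 read 41.2 and 107, then 57.1 and 192, then 104, a difference of 0.64 (limma adjusted p 0.345) with overlapping groups. Srgn read 83 and 122, then 174 and 204, then 83.5, which separated the 48 h groups by 0.89 (limma adjusted p 0.0548). Serpinb9 read 189.9 and 163, then 236 and 192, then 67.3, so its 72 h array was the lowest on this scale too. On this scale 696 of all 7453 tested probe sets were called at 48 h by limma, all of them higher, and no member was among them. An unadjusted p under 0.05 by limma was found for 3123 probe sets. The share of all probe sets whose 48 h groups separate on this scale, as those of Gzmb and Srgn do, was not counted. The separation of Gzmb and Srgn is therefore given as a description only.

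No member was called at 48 h in the main fit, which does not pair arrays by replicate number. Over all 7453 probe sets 0% had an adjusted p under 0.05 by limma, and the smallest was 0.465, while 4.39% had an unadjusted p under 0.05. Of the 4 tested members 0 reached that unadjusted threshold, the nearest being Gzmb at 0.158. The median difference of all tested probe sets was -0.01, so the members' values can be read against a centre near 0.

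**Figure D2:**
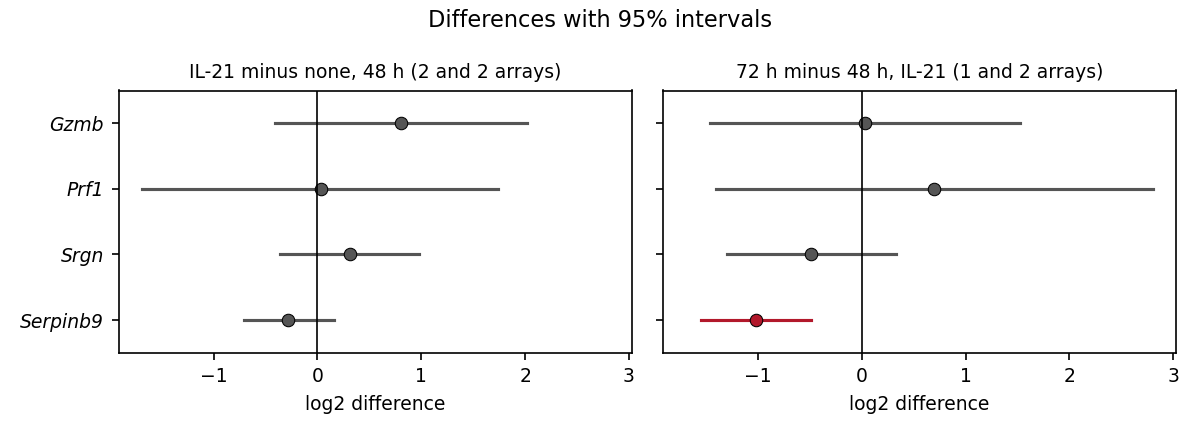
Log2 differences (points) with 95% intervals (lines) of the 4 tested members, for IL-21 against none at 48 h (left) and 72 h against 48 h with IL-21 (right), red where the limma adjusted p is under 0.05. The only red interval is that of Serpinb9 at 72 h, from -1.55 to -0.49, and the intervals of Prf1 are the widest.

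At 72 h with IL-21, compared with 48 h with IL-21, Serpinb9 fell and the other tested members did not pass the test. This comparison uses the same 2 arrays at 48 h with IL-21 as the one above and a single array at 72 h, whose spread is taken from the 48 h groups. Serpinb9 dropped from a level of 167 to 82.3, 2.03-fold lower, a difference of -1.02 ± 0.22 (95% interval -1.55 to -0.49, limma adjusted p 0.0366). It is 1 of 4 tested members, against 7.12% of all tested probe sets called lower at 72 h and 4.04% called higher. The split of all calls moves with the scaling, from 36.2% called higher here to 18.1% after median centring, 4.75% in the deposited scaling and 49.0% on hybridisation controls.

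The Serpinb9 call rests on all the arrays. Leaving out the first or the second array without IL-21 gave adjusted p-values of 0.0836 and 0.082, and leaving out the first or the second 48 h array with IL-21 gave 0.131 and 0.0815, with differences from -1.17 to -0.88. Scaling on hybridisation controls (-0.95, limma adjusted p 0.0746) and an eBayes fit without a trend (0.0886) also ended the call. In the deposited scaling it stood at -1.64 (limma adjusted p 0.00241). There the median of all tested probe sets was -0.58, and 2027 of 2128 calls were lower.

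Gzmb at 72 h lay between its 48 h arrays with IL-21, a difference of 0.03 ± 0.61 (95% interval -1.46 to 1.52, limma adjusted p 0.978). Prf1 was 0.70 ± 0.86 higher (95% interval -1.40 to 2.80, limma adjusted p 0.658), which reverses to -0.19 without the first 48 h IL-21 array and to -0.01 in the deposited scaling. Srgn was -0.49 ± 0.33 (95% interval -1.30 to 0.33, limma adjusted p 0.412), below both 48 h arrays with IL-21 but above the lowest array without it. In the deposited scaling, where the median of all tested probe sets was -0.58, Srgn was called lower (-1.16, limma adjusted p 0.0218).

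The remaining granzymes were dim at both times. Over the 7 probe sets below the filter the normalised signal ran from 2.28 to 28.7 units and the deposited signal from 0.707 to 24.6. For scale, the 15 antisense control probe sets of the array had a deposited median of 9.62 to 15.9 per array and a highest value of 24.3 to 31.4 at 48 h and 85 at 72 h. The members' dim values thus lay within the range of these controls, and they are described without a test.

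Gzmc, a member of the chromosome 14 cluster, has 2 probe sets. Its first read 6.22 and 3.02 without IL-21, 4.96 and 4.74 with it, and 28.7 at 72 h. The 72 h array lay above all 4 arrays at 48 h. No fold is given, since the 48 h values were at background and the log2 difference moved from 2.57 to 1.16 with an offset of 16 units. Its second probe set read 2.28 and 2.77, then 2.51 and 3.1, then 3.36 at 72 h.

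The probe set shared by Gzme and Gzmd read 7.45 and 6 without IL-21, 5.38 and 16 with it, and 22.4 at 72 h, so the 72 h array was the highest and the second IL-21 array close to it. The probe set for Gzmd alone went the other way at 72 h, with 6.14 and 8.2, then 9.08 and 16.6, then 5.08. It was the only dim member whose 48 h groups did not overlap, a separation that 33.8% of all tested probe sets showed. The suffix of both probe sets marks probes shared within a sequence family, so signal from these near-identical granzymes may be split between them.

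Gzma, a tryptase of the granule, read 4.99 and 11.8 without IL-21, 4.99 and 8.63 with it, and 15.2 at 72 h, again with the first arrays low. Gzmf read 6.13 and 8.84, then 3.63 and 9.2, then 5.19. Gzmk, the neighbour of Gzma and also a tryptase, read 2.4 to 3.2 on all 5 arrays. For Gzma, Gzmf and Gzmk the 48 h groups overlapped.

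**Figure D3:**
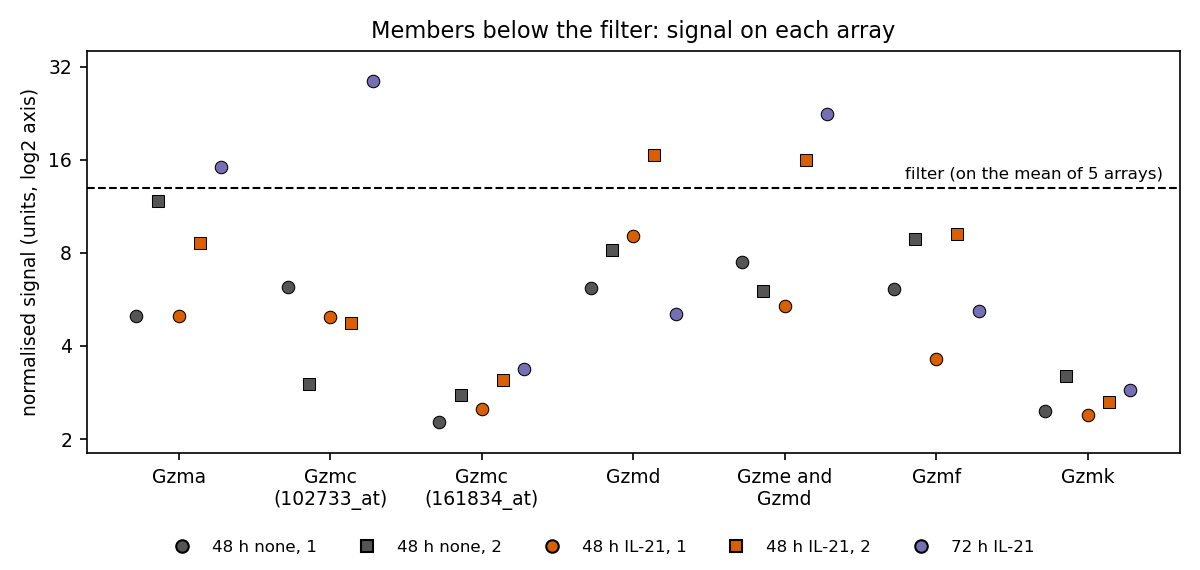
Normalised signal (log2 axis) on each of the 5 arrays of the 7 member probe sets below the filter, one column per probe set and one symbol per array. The 72 h array of the first Gzmc probe set, at 28.7 units, lies above its own 48 h arrays, and the arrays of Gzmk lie within 2.4 to 3.2.

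For Gzmb and Prf1 the replicate arrays of a medium differed by more than the means of the media. The second array was above the first 2.4-fold without IL-21 and 2.22-fold with it for Gzmb, and 2.91-fold and 3.44-fold for Prf1. Srgn was 1.65-fold and 1.18-fold higher, and Serpinb9 was at 0.977 and 0.814 of the first array. A rise of at least 2-fold in both media was found for 2 of the 4 tested members and for 0.939% of all tested probe sets, a rule chosen after these values were seen. Among 91 other tested genes of the granule pathway 2 met it, Ctsw, a cathepsin of killer cells (3.93-fold and 2.51-fold), and Ctla2b, for which no fold is given because its first arrays were at background. Summed B cell markers went the other way, 679 and 401 without IL-21 and 686 and 518 with it, as did the myeloid markers, 472 and 406, then 419 and 325. The part of either in the granule genes' spread was not tested.

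**Figure D4:**
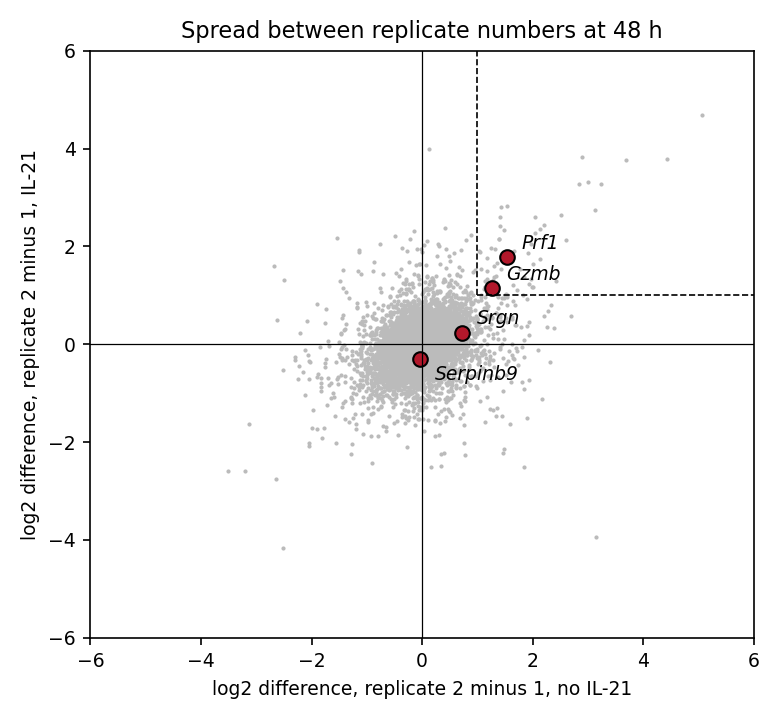
Log2 difference of replicate 2 minus replicate 1 for all 7453 tested probe sets (grey), without IL-21 on the horizontal axis and with IL-21 on the vertical, with the 4 tested members in red and dashed lines at a 2-fold rise in both. Gzmb and Prf1 lie inside the dashed corner, which holds 0.939% of all points, and Srgn and Serpinb9 lie outside it.

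Motif searches of the 250-base windows are given as a description. Letters were searched on both strands, matches of different motifs overlapped in 0 cases in these windows, and shares are of 32851 promoters of the same length. The RUNX letters TGTGGT were in 7 of the 10 members' windows (14% of all promoters), in every granzyme but Gzmk and in Prf1. The windows of Gzmc, Gzmd, Gzme and Gzmf are alike, so their matches are not separate instances. T-box letters TCACAC were in 2, Gzmb and Gzmk (12.3%), AP-1 letters TGANTCA in 1, Gzmb (6.75%), and CRE letters TGACGTCA in 2, Gzmc and Gzmf (1.55%). ETS letters AGGAAG were in 5 (29.5%), NFAT letters TGGAAA in 2 (18.6%), RBPJ letters TGGGAA in 2 (21.6%) and E-box letters CANNTG in all 10 (66.2%). STAT letters TTCNNNGAA were in 0 (7.02%), which says only that these letters are not in these windows. For Srgn, which has 2 starts in the table, the first was used. The windows of Gzmd and Gzme were 94.8% identical (238 of 251 aligned columns), and those of Gzmc and Gzme 80.9%, against 47.8% for Gzmb and Gzmc. In the gene order of the chromosome 14 cluster, Gzme and Gzmd are neighbours and Gzmb lies at the end beside Gzmc, while Gzma and Gzmk are neighbours on chromosome 13.

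The other genes of the granule pathway were taken from 8 lists, with 91 tested genes in all. At 48 h 0 were called by limma in either direction and 4 had an unadjusted p under 0.05, 4.4% against 4.39% of all probe sets. At 72 h 4 were called higher (4.4% against 4.04% of all probe sets) and 7 lower (7.69% against 7.12%), both shares near the background in the main fit. An unadjusted p under 0.05 was found for 37 genes, 40.7% against 27.3% of all probe sets. Ctla2b is among the 37. It and Mpeg1, also among the 91, passed the filter only through the 72 h array. All these calls were lost when the first or the second 48 h array with IL-21 was left out, when 0 of all probe sets were called by limma and 1697 or 1749 had an unadjusted p under 0.05. A fit without the variance trend also called 0. The fit with the replicate block called more, mostly higher at 72 h, as given at the end. In the deposited scaling, where the median of all probe sets was 0.57 at 48 h and -0.58 at 72 h, 11 were called higher and 0 lower at 48 h, 8 of them transcription factors, and 2 higher and 22 lower at 72 h, with list medians from -0.74 to 0.12 at 72 h. Without the first or the second array lacking IL-21, 2 were called higher and 4 lower at 72 h.

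Other granzymes and granule proteases had 5 of 12 genes on the array past the filter. At 72 h 1 was called higher and 0 lower, against 4.04% and 7.12% of all probe sets, with a median difference of 0.62 (0.00 at 48 h). Ctsd, an aspartic protease of lysosomes, rose from 235 to 526 (1.16 ± 0.18, limma adjusted p 0.0184), but lost the call after median centring (0.87, limma adjusted p 0.0935) and in the deposited scaling (0.46, 0.175). Ctsw read 24.8 and 97.3 without IL-21, 31.2 and 78.3 with it, and 434 at 72 h, above every 48 h array, with a difference of 3.13 ± 0.87 that missed the threshold (limma adjusted p 0.0744). It passed on hybridisation controls (limma adjusted p 0.00567), in the deposited scaling (0.0209) and without the first or the second array lacking IL-21 (0.0425 and 0.0418). Ctsc, which activates granzymes by removing a dipeptide, was at 135 and 68.7 (-0.97, limma adjusted p 0.0734). It was called lower after median centring (-1.14, limma adjusted p 0.0397) and in the deposited scaling (-1.55, 0.00604), and its other probe sets stood at -0.90 and 0.63. Ctsl led this list at 48 h with -0.33. Gzmg and Gzmm were below the filter, as were 5 others, and Gzmn is not named in the annotation used.

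Protease inhibitors of killer cells had 5 of 10 past the filter, all higher at 72 h by sign (median 0.75). Of these 0 were called and 3 had an unadjusted p under 0.05 by limma, as did 27.3% of all probe sets. The 5, the 3 and the median include Ctla2b, whose own difference is not used as a test for the reason given below. In the deposited scaling 3 were higher by sign and 2 lower, Cst3 turning to -0.12. Ctla2b, a cysteine protease inhibitor, read 2.49 and 14.3 without IL-21, 3.27 and 20.4 with it, and 239 at 72 h. It passed the filter only through the 72 h array, with a mean log2 value of 2.8 at 48 h against the threshold of 3.70, so its difference is not used as a test. Serpinb6a, a relative of Serpinb9 that inhibits other proteases, was at 0.98 (limma adjusted p 0.0576). Cst7, which inhibits granule cathepsins, was at 415 and 697 (0.75, limma adjusted p 0.237). Cst3 stood at -0.37 at 48 h and 0.61 at 72 h. A second Cst3 probe set, dim at 9.68 to 20.6 units, stood at -0.15 and, in the other direction, -0.57. Serpinb9 itself lies on chromosome 13 between Serpinb6b and Serpinb9b, which the annotation used does not name.

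Proteins listed as granule membrane and structural had 5 of 8 past the filter, Mpeg1 only through its 72 h array. At 72 h 1 was called higher and 0 lower, against 4.04% and 7.12% of all probe sets. The median was -0.26 at 48 h and 0.51 at 72 h. The 72 h median is the value of Mpeg1 itself and is not used as a result on the list. With an offset of 16 units it was 0.19. The list was made by choice, and whether Tmem123 lies in granules was not examined. Tmem123 rose from 213 to 412 (0.95, limma adjusted p 0.0458), a call lost without the first or the second array lacking IL-21 (0.0632 and 0.0601) and under each other scaling, where the difference was 0.24 to 0.94. Lamp1, the surface mark of degranulation, differed by 0.16 at 72 h, and Lamp2 by -0.71 at 48 h (unadjusted p 0.0301 by limma, adjusted 0.967) and 0.82 at 72 h. A second, dimmer Lamp2 probe set stood at 0.22 at 48 h, the other direction, and 0.31 at 72 h. Cd53 differed by 0.19.

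The exocytosis machinery, which moves and fuses granules at the synapse, had 21 of 21 genes on the array past the filter. At 72 h 0 were called by limma and 7 had an unadjusted p under 0.05, while 17 were higher by sign and 4 lower, with a median of 0.42 against -0.01 for all probe sets. In the deposited scaling the median was -0.22 with 5 higher and 16 lower, and relative to all probe sets it was 0.36 there and 0.43 in the main scaling. The genes with the smallest p were Myh9 (0.81, limma adjusted p 0.0628, with a second probe set at 1.23 and 0.0389), Coro1a (0.52, 0.0679) and Hps1 (0.91, 0.0992). At 48 h the smallest p was that of Was, an actin regulator (0.37, unadjusted p 0.0283). Rab27a, Unc13d and Stx11 are not named in the annotation used.

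Sorting and glycosylation genes, which direct granzymes into granules through the mannose 6-phosphate receptors, had 6 of 8 past the filter. At 72 h 0 were called by limma and 2 had an unadjusted p under 0.05, as did 27.3% of all probe sets. Igf2r, a receptor of that kind, was at 0.94 (limma adjusted p 0.0892), Gga1 at 1.15 (0.0994) and Gnptab at 0.49 (0.274). At 48 h Gga1 was at -0.43, and M6pr was below the filter. Genes for the chains on serglycin had 7 of 8 past the filter. At 72 h 1 was called higher and 1 lower, against 4.04% and 7.12% of all probe sets. Papss1, which makes the sulphate donor, rose from 59.1 to 145 (1.29, limma adjusted p 0.0307), and Chpf, a chondroitin polymerising factor, fell from 180.2 to 90.5 (-0.99, limma adjusted p 0.0488). Both calls were lost without the first or the second array lacking IL-21 (0.0688 and 0.0669 for Papss1, 0.0997 and 0.0986 for Chpf). Papss1 also lost it in the deposited scaling (0.61, limma adjusted p 0.169) and after median centring (0.0811), and Chpf after median centring (0.0538), on the trimmed mean (0.0566) and on hybridisation controls (0.108). B3galt6 stood at -0.79 and was not called.

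Genes of the death pathways on which granzymes act in target cells, not all of them cleaved by granzymes, had 20 of 20 past the filter. At 72 h 0 were called higher and 4 lower (median -0.19), against 4.04% and 7.12% of all probe sets. Hax1 fell from 244 to 88.1 (-1.47, limma adjusted p 0.0142), Apex1 from 317 to 104 (-1.61, 0.0145) and Nme1 from 72.6 to 18.3 (-1.99, 0.0135). A second Nme1 probe set gave 0.18. Set, named after its value was seen, fell from 528 to 259 (-1.03, limma adjusted p 0.0347). These genes have housekeeping roles in the cell that makes them as well. At 48 h Ndufs3, a respiratory chain subunit, had the smallest p of the list (-0.39, unadjusted p 0.0228).

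Transcription factors tied to granzyme and perforin genes had 22 of 28 past the filter, with 1 called higher and 2 lower at 72 h (median 0.27), against 4.04% and 7.12% of all probe sets. Irf4, induced by T cell receptor signals, fell from 1932 to 346, 5.58-fold (-2.48 ± 0.12, limma adjusted p 0.00678), with arrays at 1883, 1903, 1858 and 2009 at 48 h. Nfatc1 fell from 355 to 199 (-0.84, limma adjusted p 0.0356) and Ets1 rose from 72.6 to 169 (1.22, 0.0287, with a second probe set at 0.85). Both calls were lost without the first or the second array lacking IL-21, at 0.0765 and 0.0739 for Nfatc1 and 0.0667 and 0.0653 for Ets1. Ets1 also lost it in the deposited scaling (0.51, limma adjusted p 0.236) and after median centring (0.0992). Nfatc1 lost it on hybridisation controls (0.0978) and stood at -1.59 in the deposited scaling. At 48 h the smallest p was that of Elf4, a factor that activates Prf1, at 0.58 (unadjusted p 0.0532). Eomes and Prdm1 were below the filter, and Tbx21 and Runx3 are not named in the annotation used.

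**Figure D5:**
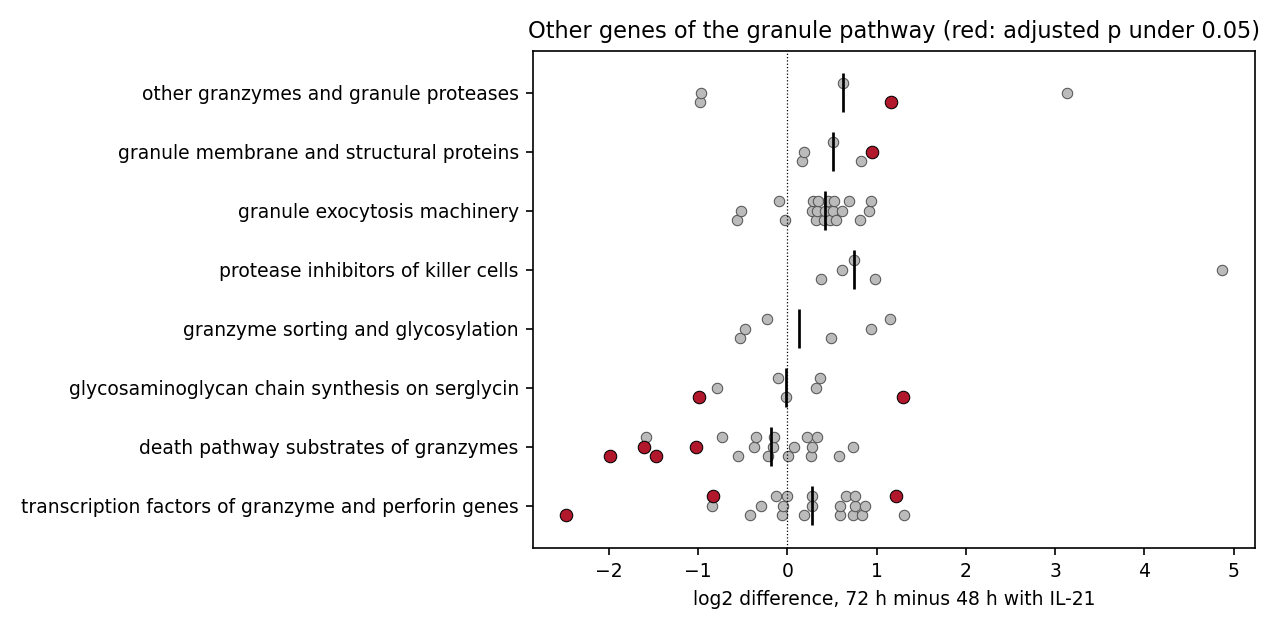
Log2 difference of 72 h minus 48 h with IL-21 for each tested gene of the 8 pathway lists, 1 row per list, with a black tick at the list's median and red points where the limma adjusted p is under 0.05. Red points on the left include Irf4 at -2.48 and Nme1 at -1.99, and the farthest right, in grey, is Ctla2b, which passed the filter only through its 72 h array.

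For each tested member the genes with the most similar course over the 5 arrays were found by the root mean square difference of centred log2 values. For Gzmb they were Myh4 (0.07), Slc30a4 (0.22) and Eya3 (0.22), against a median of 0.74 over all probe sets. For Prf1 they were Klf7 (0.10), Satb1 (0.12) and Il12rb2 (0.13), against 0.85. Srgn lay nearest Ddx10 (0.07), Brip1os (0.08) and Dag1 (0.08), and Serpinb9 nearest Taf1a (0.07), Plod3 (0.08) and Gm5364 (0.08). With 5 arrays and 7453 probe sets such matches are a description. Some of the matching probe sets were dim, near the filter signal of 13 units. Myh4 read 6.94 to 25.9 over the arrays, Brip1os 10.1 to 18.6 and Dag1 12.6 to 18.6. The Prf1 set shows the replicate pattern in full: Satb1 read 224 and 847 without IL-21, 238 and 865 with it, and 739 at 72 h.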

How the data were processed

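Gene expression of 5 CD8 T cell cultures was measured on Affymetrix MG-U74Av2 arrays, 1 per sample. The authors deposited intensity values, probe set signals on a linear scale, and the submitters' processing notes name MAS5. Its version, target and detection calls are not given. The columns had not been scaled to each other, and quantile normalisation removed any shift common to all genes. Each column was assigned by its sample's name.

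Names from a platform annotation were updated by Entrez identifier to the GRCm38.p6 gene table (10817 of 10833 singly named probe sets). Of 12422 probe sets that are not controls, 396 had several names and 1193 none. An offset of 1.53 units (10th percentile) preceded log2, which shrinks differences of dim probe sets. The filter removed 4969 probe sets. limma 3.58.1 in R 4.3.3 fitted 3 group means to 5 arrays (2 residual degrees of freedom) with trended eBayes variances, two-sided, and Benjamini-Hochberg adjustment over 7453 probe sets at 0.05. A pathway gene's brightest probe set stood for it. The fit was tested on simulated data.

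Members and lists were chosen with earlier results of these data known. Named pathway genes were, in each list, that with the smallest p at 48 h and up to 3 at 72 h, plus a few always named. Promoter windows are RefSeq's. Alternatives were the offset, scaling, filter, variance trend, replicate block and each 48 h array left out.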

Additional observations from a re-analysis of the deposited data

How the results depend on the processing

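Of 644 recomputed differences of tested probe sets, 522 kept direction and side of the threshold, 62 lost a call, 31 gained one and 29 changed sign. Of 336 for probe sets below the filter, 22 changed sign, among them values of Gzma, Gzmf, Gzmk, both Gzmc probe sets and the one shared by Gzme and Gzmd. Of recomputed counts 38 stayed within 1.5 times and 18 did not. At 48 h the count of called probe sets was 696, all higher, in the deposited scaling, where the median of all tested probe sets moved to 0.57, and 11 with the replicate block. At 72 h it was 2128 in the deposited scaling (median -0.58), 1860 with the replicate block, 0 without the variance trend (1843 at an unadjusted p under 0.05 by limma) and 0 to 453 with an array left out, against 832. Among the members the 72 h count was 2 in the deposited scaling, 0 on hybridisation controls, 0 without the trend, 3 with the replicate block and 0 with any 48 h array left out. With the replicate block 1 member was called at 48 h, Gzmb (0.80 ± 0.08, limma adjusted p 0.0344), and at 72 h Gzmb (0.64) and Prf1 (1.53) were called higher. Of the 91 other pathway genes the block called 27 higher, Ctla2b among them, and 11 lower at 72 h. Over all 7453 probe sets it called 860 higher and 1000 lower. The labels share numbers only, and deviations of same-numbered arrays correlated at 0.36 over 7453 probe sets with 2 pairs, so the block is given only here.

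Signs turned at 48 h in the deposited scaling for Serpinb9 (0.27), Ctsl (0.23), Cst3 (0.19), Gga1 (0.18), Papss1 (0.29) and Ndufs3 (0.21), and on hybridisation controls for Prf1 (-0.10), Cst7 (-0.12) and Lamp1 (-0.12). At 72 h they turned in the deposited scaling for Gzmb (-0.40), Prf1 (-0.01), Cd53 (-0.30), Coro1a (-0.08), Cst3 (-0.12), Gnptab (-0.07) and Lamp1 (-0.53), and after median centring for Lamp1 (-0.12). With an array left out, ranges at 48 h were -0.86 to 0.92 for Prf1, -0.05 to 0.67 for Srgn, -0.27 to 0.38 for Cst7, -0.17 to 0.28 for Lamp1, -0.69 to 0.03 for Ctsl and 0.17 to 1.43 for Gzmb. At 72 h they were -0.54 to 0.61 for Gzmb, -0.19 to 1.59 for Prf1, -0.03 to 0.41 for Cd53 and -0.07 for Lamp1 at its lowest. The causes were not tested. For the 7 dim member probe sets the limit is a signal within the range of the antisense controls.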
